A study of Rattus norvegicus with 8 samples.

Results

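The 6 genes described here encode membrane transporters of thyroid hormone and amino acids or, for Slc3a2, a heavy chain that pairs with such transporters. They are Slc16a10, Slc7a8, Slc7a5, Slc3a2, Slc43a1, and Slc43a2, called the 6 transporters below for short. They were chosen by gene symbol, and all 6 were found among the 30560 gene identifiers of the deposited count table. RNA-Seq was performed on total RNA from whole thyroid tissue of 8 male Wistar rats, 2 in each of 4 groups. The rats received sham or 4 Gy cervical X-irradiation at 1 week (1w0Gy and 1w4Gy) or at 4 months of age (4m0Gy and 4m4Gy), and the thyroids were removed about 8 weeks later. The 2 RNA samples of each group came from different rats and were picked from a larger set for their higher RNA integrity. The comparisons ask whether the transporter mRNAs differed after irradiation at either age, and between the ages. Throughout, 1 week and 4 months are the ages at irradiation or sham irradiation, not at removal of the thyroid.

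Thyroid hormones are charged amino acid derivatives and cross the plasma membrane through transporters. In the thyroid, hormone set free from thyroglobulin inside the follicular cell has to leave the cell on its blood side. SLC16A10 (MCT10) is a monocarboxylate transporter family member that moves aromatic amino acids and triiodothyronine. SLC7A5 (LAT1) and SLC7A8 (LAT2) are the light chains of L-type amino acid exchangers, and each is linked by a disulfide bond to the heavy chain SLC3A2 (4F2hc, CD98), which brings the pair to the cell surface. SLC43A1 (LAT3) and SLC43A2 (LAT4) carry large neutral amino acids without a heavy chain.

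The upstream sequences of the heavy chain gene and of a light chain gene are shown because Slc3a2 had the highest level of the 6 genes and Slc7a5 the largest fitted difference after irradiation at 1 week. They are the 250 bases before the annotated start in RefSeq on the GRCr8 assembly, written 5′ to 3′ on the gene's strand, and the capitals mark the GC box GGGCGG or its reverse complement CCGCCC, a motif bound by Sp1 family factors. Slc3a2 has 2 annotated starts on the minus strand, with windows at chr1:215048065-215048314 and chr1:215039671-215039920. The Slc7a5 window lies at chr19:66872413-66872662 on the minus strand.
Slc3a2, first window: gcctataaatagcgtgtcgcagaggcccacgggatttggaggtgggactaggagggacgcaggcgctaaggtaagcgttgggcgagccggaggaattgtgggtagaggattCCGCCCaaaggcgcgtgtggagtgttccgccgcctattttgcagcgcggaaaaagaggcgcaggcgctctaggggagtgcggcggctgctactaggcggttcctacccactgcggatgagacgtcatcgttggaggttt
Slc3a2, second window: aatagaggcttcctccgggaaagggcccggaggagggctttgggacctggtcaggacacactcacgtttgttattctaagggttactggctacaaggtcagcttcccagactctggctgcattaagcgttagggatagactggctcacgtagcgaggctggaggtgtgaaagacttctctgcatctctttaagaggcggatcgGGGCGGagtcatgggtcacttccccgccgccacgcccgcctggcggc
Slc7a5: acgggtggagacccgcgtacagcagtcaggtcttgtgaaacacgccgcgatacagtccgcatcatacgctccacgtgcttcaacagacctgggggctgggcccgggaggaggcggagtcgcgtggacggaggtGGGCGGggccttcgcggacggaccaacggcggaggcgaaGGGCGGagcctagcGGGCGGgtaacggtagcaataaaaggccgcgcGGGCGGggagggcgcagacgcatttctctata

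The Slc7a5 window held 4 GC boxes and each Slc3a2 window held 1. All 6 genes matched the table, with 7 windows between them, and each of the 7 held at least 1 GC box on either strand. Of all 33469 windows of this length, 30.5% did, and 7.41% held 3 or more. The GC content was 66.8% for Slc7a5, 60.8% and 58.4% for the Slc3a2 windows, 53.6% for Slc7a8, 54% for Slc43a1, 60% for Slc43a2, and 68.4% for Slc16a10, against a median of 51.2% over all windows. These are letter matches and describe the sequence alone.

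The levels of the 6 mRNAs differed widely from each other within the thyroid. Reads counted on genes ranged from 14835400 to 18138102 per sample, and Tg, the thyroglobulin gene, took 18.5% to 21.3% of them. Levels of a gene are given as CPM, its count scaled to a common library size with TMM factors, and levels between genes as CPM divided by the length of the counted transcript in kilobases. Slc3a2 was the highest, with a mean of 137 CPM per kilobase over the 8 samples, rank 362 of the 22179 genes with a count. Slc7a8 followed with 10.8 (rank 5885) and Slc43a2 with 6.90 (rank 7868). Slc7a5 had a mean of 2.25 CPM per kilobase (rank 11617) and Slc43a1 had 1.68 (rank 12330). Slc16a10 was at the lower end with 0.325 CPM per kilobase (rank 15722). In the TPM that the authors deposited the order was the same, from a mean of 127 for Slc3a2 to 0.302 for Slc16a10.

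The heavy chain mRNA exceeded both light chain mRNAs in every sample. Slc3a2 was 8.74 to 19.6 times as high as Slc7a8 per kilobase, and 33.1 to 130 times as high as Slc7a5. Of the light chains, Slc7a8 was higher than Slc7a5 in all 8 samples, by 2.27 to 10.5 times. Of the transporters that need no heavy chain, Slc43a2 was 2.61 to 6.78 times as high as Slc43a1. The order of Slc7a8 and Slc43a2 was also the same in all 8 samples, but the lowest ratio was 1.06.

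**Figure D1:**
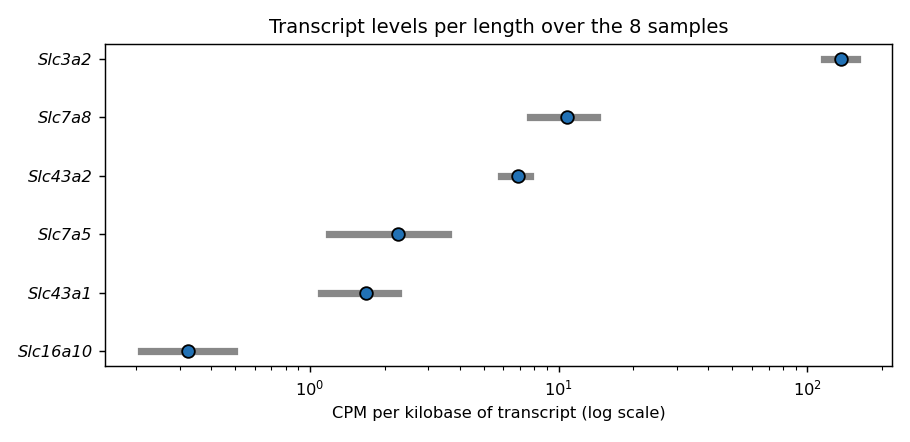
Level of each transporter mRNA in CPM per kilobase of the counted transcript, on a log scale. Points are means over the 8 samples and bars run from the lowest to the highest sample; Slc3a2 lies between 117 and 158, apart from the other 5 genes, and Slc16a10 lies between 0.21 and 0.497.

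How far the 6 genes varied between samples differed as well, and depth limited some of them. Slc43a2 and Slc3a2 were the steadiest, with coefficients of variation of 11.4% and 12.2% over the 8 samples. Slc43a1 varied by 22.1%, Slc7a8 by 23.4%, Slc16a10 by 25.9%, and Slc7a5 by 35.2%. Slc16a10 had 9 to 21 counts per sample, for which counting alone gives 27.5%, so its differences between samples were not detectable above counting error. Slc43a1 had 43 to 93 counts (11.9% from counting) and Slc7a5 had 64 to 201 (8.85%). Slc7a8, Slc43a2, and Slc3a2 had at least 484, 426, and 3724 counts, and counting error was under their observed variation.

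**Figure D2:**
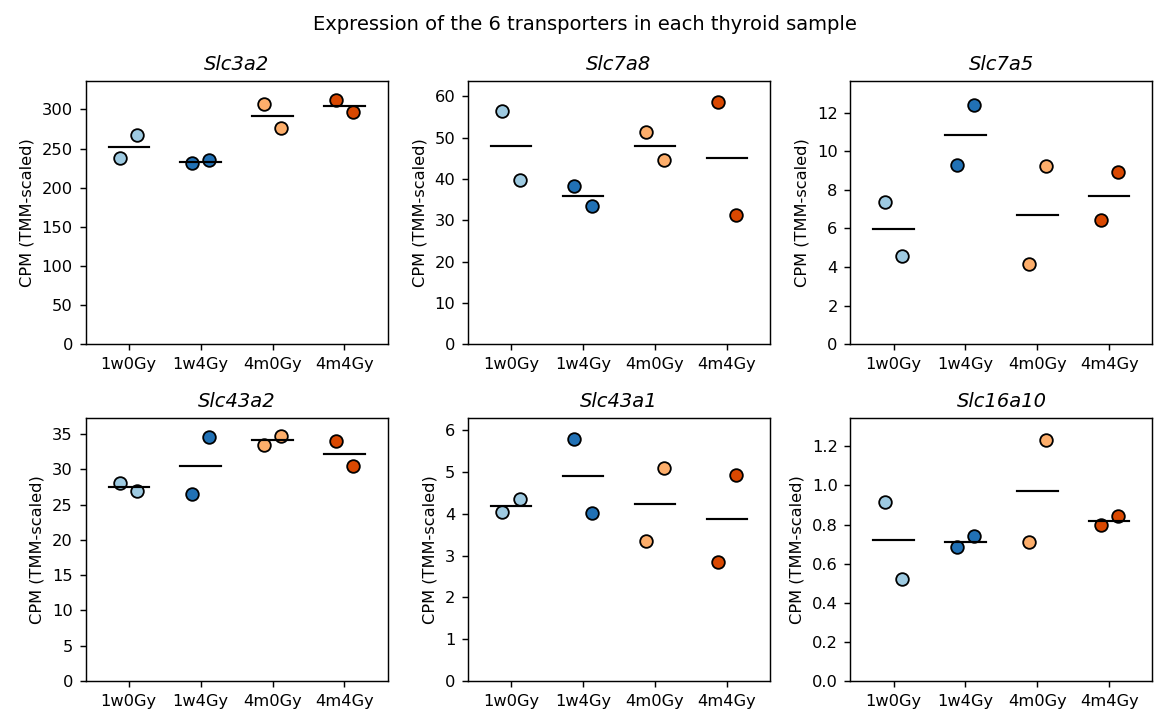
Level of each of the 6 transporter mRNAs in every thyroid sample, in TMM-scaled CPM on axes that start at 0. Each point is 1 rat and each line the mean of the 2 rats of a group; for Slc3a2 the 4 samples of rats irradiated or sham-irradiated at 4 months all lie above the 4 samples of the 1-week groups.

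After irradiation at 1 week, Slc7a5 tended to be higher and Slc7a8 lower, but no difference passed the test. Of 15359 genes tested with edgeR's quasi-likelihood test, 1 gene (0.00651%) was called at a Benjamini-Hochberg adjusted p under 0.05 with a fold change above 1.5 or under 0.5, and 0 of the 6 transporters were. DESeq2 called 13 genes and also 0 of the 6. At an unadjusted p under 0.05, edgeR had 2 of the 6 transporters and 872 of all genes (5.68%). When edgeR was fitted on all 8 samples, 0 of the 6 and 970 of 15684 genes were under 0.05. The SE in that fit was 0.39 for Slc7a5 (edgeR unadjusted p = 0.0637) and 0.33 for Slc7a8 (edgeR unadjusted p = 0.247).

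Slc7a5, the LAT1 light chain, was at 7.39 and 4.57 CPM in the 1w0Gy rats and at 9.26 and 12.4 CPM in the 1w4Gy rats. The groups did not overlap. The fitted log2 fold change was 0.85 (SE 0.26), or 1.81-fold with a 95% confidence interval of 1.18 to 2.78, with an unadjusted p of 0.0136 and an adjusted p of 0.851 in edgeR's quasi-likelihood test. Leaving out 1 of the 4 samples gave 0.55 to 1.25 on the log2 scale.

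Slc7a8, the LAT2 light chain, was at 56.3 and 39.7 CPM in the 1w0Gy rats and at 38.2 and 33.4 CPM in the 1w4Gy rats. Both irradiated samples were below both sham samples, the nearest by only a small margin. Its log2 fold change was -0.43 (SE 0.17), or 0.745-fold (95% confidence interval 0.560 to 0.991), with an edgeR adjusted p of 0.875. Without the first 1w0Gy replicate the value was -0.15, and without the second it was -0.65.

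The heavy chain Slc3a2 was at 238 and 267 CPM in the 1w0Gy rats and at 231 and 236 CPM in the 1w4Gy rats. These groups did not overlap either, but the fitted log2 fold change was small at -0.11 (SE 0.096), or 0.926-fold (0.793 to 1.08). With 2 samples a side such a separation was common, and 35.5% of the 15498 genes that averaged 0.5 CPM or more did not overlap in this comparison. Slc43a1, Slc43a2, and Slc16a10 overlapped between the groups, with log2 fold changes of 0.22 (SE 0.25), 0.15 (SE 0.14), and -0.02 (SE 0.47).

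Markers of other cells differed beside these values in the bulk tissue. In bulk RNA, fewer cells of a type and less RNA per cell cannot be told apart. The summed level of 6 endothelial markers (Pecam1, Cdh5, Kdr, Tek, Vwf, Emcn) was 697 and 678 CPM in the 1w0Gy rats and 828 and 803 CPM in the 1w4Gy rats, and 6 of 6 were higher after irradiation, none of them called (median log2 fold change 0.22). The summed level of 7 adipocyte markers was 563 and 445 CPM in the 1w0Gy rats and 299 and 315 CPM in the 1w4Gy rats, and 7 of 7 were lower, none of them called (median -0.85). Over the 8 samples Slc7a5 varied with the endothelial sum (Pearson's r = 0.85, exact permutation p = 0.00838; Spearman's rho = 0.952, exact permutation p = 0.00114; n = 8), with Benjamini-Hochberg values of 0.147 and 0.0737 over the 66 relations between the 6 genes and 11 marker lists. Without the 2 samples farthest from the median of the endothelial sum, r was 0.948. Both 1w4Gy samples had the highest endothelial sums and the highest Slc7a5 of the 8, so the relation is not separate from the group difference. Within groups, the sample with more endothelial marker RNA also had more Slc7a5 in 3 of 4 groups. The part of these cells in the Slc7a5 values was not tested.

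Slc7a8 varied with the parathyroid markers over the 8 samples. Parathyroid glands lie against the thyroid and can be carried along in dissection, and Pth (parathyroid hormone), Gcm2, and Casr (the calcium-sensing receptor) mark them. The 1w0Gy rats had a summed level of 4824 and 3306 CPM and the 1w4Gy rats of 2899 and 1940 CPM. For the 4m0Gy rats it was 5482 and 3956 CPM, and for the 4m4Gy rats 5367 and 343 CPM. The second 4m4Gy replicate thus held the least parathyroid RNA, with Pth at 298 CPM and Gcm2 at 4.01 CPM. It also had the lowest Slc7a8, at 31.3 CPM, whereas the other 4m4Gy replicate had the highest, at 58.6 CPM.

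The relation of Slc7a8 with the parathyroid sum had a Pearson's r of 0.929 (exact permutation p = 0.000744) and a Spearman's rho of 0.929 (exact permutation p = 0.00223, n = 8). The Benjamini-Hochberg values over the 66 relations were 0.0491 and 0.0737, so it passed 0.05 by r and not by rho. Without the 2 samples farthest from the median of the sum, r was 0.978. In each of the 4 groups the sample with more parathyroid RNA had more Slc7a8. The marker relations were computed after the levels had been seen, and the part of parathyroid tissue in the differences of Slc7a8 was not tested.

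**Figure D3:**
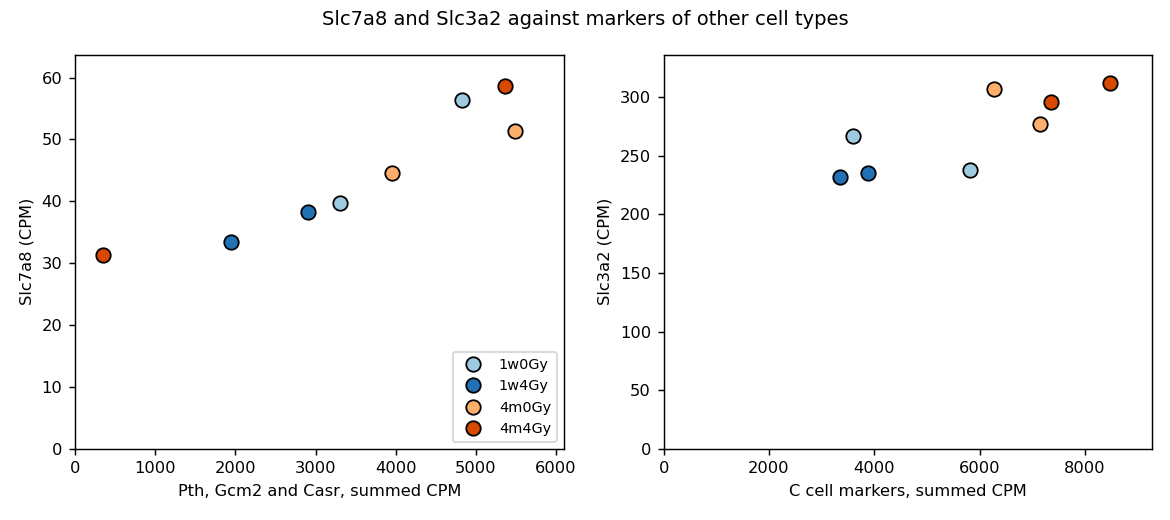
Left, Slc7a8 in CPM against the summed CPM of the parathyroid markers Pth, Gcm2, and Casr; right, Slc3a2 in CPM against the summed CPM of 6 C cell markers. Each point is 1 rat coloured by group; Slc7a8 climbs from 31.3 to 58.6 CPM with the parathyroid sum, and for Slc3a2 the samples of the 4-month groups lie to the upper right of those of the 1-week groups.

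After irradiation at 4 months no transporter separated the groups. All 6 overlapped between 4m0Gy and 4m4Gy, whereas 39.5% of the expressed genes did not. With edgeR's quasi-likelihood test 3 of 15253 genes were called (0.0197%), and 0 of the 6 transporters were called or had an unadjusted p under 0.05. DESeq2 also called 0 of the 6.

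Slc3a2 was at 307 and 277 CPM in the 4m0Gy rats and at 312 and 296 CPM in the 4m4Gy rats. Its log2 fold change was 0.06 (SE 0.077), and the 95% confidence interval of the fold, 0.922 to 1.17, leaves room only for small differences. Slc43a2, with 33.5 and 34.7 CPM against 34.0 and 30.4 CPM, had an interval of 0.810 to 1.10.

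The light chains were far less certain at this age. Slc7a8 was at 51.4 and 44.6 CPM in the 4m0Gy rats and at 58.6 and 31.3 CPM in the 4m4Gy rats, so that the irradiated samples lay on both sides of the sham samples. Its interval ran from 0.353-fold to 2.48-fold, and the log2 fold change was 0.28 without the second 4m4Gy replicate and -0.62 without the first. Slc7a5 was at 4.14 and 9.21 CPM against 6.44 and 8.93 CPM, with an interval of 0.549-fold to 2.38-fold, and leaving out 1 sample turned its direction.

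Slc43a1 was at 3.36 and 5.10 CPM in the 4m0Gy rats and at 2.85 and 4.92 CPM in the 4m4Gy rats. Slc16a10 was at 0.711 and 1.23 CPM against 0.796 and 0.842 CPM. For both, the spread within 4m0Gy was wider than the difference between the group means.

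The responses at the ages were then compared with each other and pooled. In the interaction of age and irradiation, edgeR called 0 of 15684 genes (0%), with 1431 genes but none of the 6 transporters at an unadjusted p under 0.05, and DESeq2 called 26 genes and 0 of the 6. The largest difference in response among the transporters was that of Slc7a5, whose log2 fold change was 0.66 higher at 1 week than at 4 months (SE 0.56, 95% confidence interval -0.65 to 1.96, edgeR adjusted p = 0.776). Over both ages, with age as a covariate, 2 of 15684 genes were called (0.0128%) and 0 of the 6 transporters were, by edgeR or DESeq2. Slc7a5 was 1.45-fold higher in the 4 irradiated samples (log2 fold change 0.53, SE 0.28, edgeR adjusted p = 0.999) and Slc3a2 was 0.983-fold (0.888 to 1.09).

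**Figure D4:**
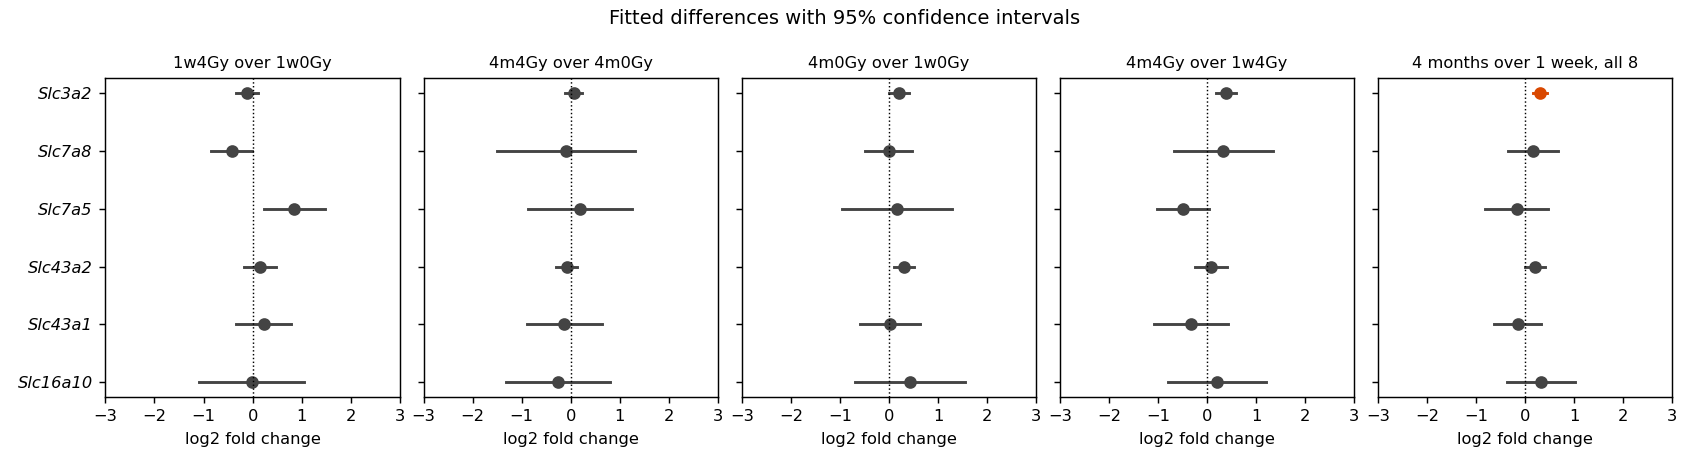
Fitted log2 fold changes of the 6 transporters in 5 comparisons, with 95% confidence intervals from edgeR's quasi-likelihood fits. Points right of the dotted line are higher in the group named first; the only called difference, in orange, is that of Slc3a2 between the ages over all 8 samples.

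Between the ages, Slc3a2 was higher in the older rats. The 4 samples of the 4-month groups lay between 277 and 312 CPM and the 4 samples of the 1-week groups between 231 and 267 CPM, without overlap. In the sham-irradiated rats the log2 fold change was 0.21 (SE 0.085), or 1.16-fold (1.01 to 1.33), with an edgeR adjusted p of 0.262. In the irradiated rats it was 0.39 (SE 0.086), or 1.31-fold (95% confidence interval of the log2 fold change 0.19 to 0.58), with an edgeR adjusted p of 0.0935. Of all genes, 1.06% (163 of 15364) were called with age in the sham-irradiated rats and 0.89% (136 of 15275) in the irradiated rats, and 0 of the 6 transporters were called by edgeR in either. At an unadjusted p under 0.05 there were 2 of the 6 in the sham-irradiated rats, beside 17.8% of all genes, and 1 of the 6 in the irradiated rats, beside 14.8%. DESeq2 called 346 genes and 0 of the 6 in the former and 292 genes and 1 of the 6 in the latter.

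Because Slc3a2 lay higher under both treatments, age was also fitted over all 8 samples with irradiation as a covariate, a comparison added after these values had been seen. There Slc3a2 was 1.23-fold higher in the 4-month groups (1.11 to 1.36, log2 fold change 0.30, SE 0.066, edgeR adjusted p = 0.0301). It was 1 of 669 genes called among 15684 (4.27%) and the only gene of the 6 that was called. The call was lost, with adjusted p values of 0.0739 to 0.0926, when any of 5 of the 8 samples was left out, namely the first replicate of any group or the second 4m4Gy replicate. In the irradiated rats alone it was gained with DESeq2 (adjusted p = 0.0273), without a filter on low counts (0.0378), with the replicate number as a block (0.0336), and without either 1w4Gy replicate (0.0310 and 0.0237), while without either 4m4Gy replicate the adjusted p rose to 0.616 and 0.393.

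Markers of several cell types differed with age beside Slc3a2. The summed level of 6 C cell markers (Calca, Calcb, Chga, Chgb, Scg2, Scg3) was 3348 to 5820 CPM in the 1-week groups and 6277 to 8478 CPM in the 4-month groups. Calca, the calcitonin gene, was called over both treatments, and Chga, which parathyroid cells also express, was among the 2 of the 6 that were not higher. The summed level of 7 macrophage markers was 117 to 146 CPM in the 1-week groups and 68.6 to 101 CPM in the 4-month groups, with 7 of 7 lower and Csf1r, Cd163, and Mrc1 called. Red blood cell markers summed to 567 to 790 CPM at 1 week and 378 to 536 CPM at 4 months (2 of 2 tested lower, Hba-a2 called), nerve markers to 72.0 to 120 and 49.5 to 67.9 CPM (5 of 5 lower, Pmp22 called), and cartilage and trachea markers to 8.10 to 13.5 and 2.71 to 7.32 CPM (2 of 2 tested lower, Krt5 called, with the defining marker Matn1 at 0 in all samples). The cartilage and trachea sum was mostly Krt5, at 7.23 to 12.4 CPM in the 1-week groups and 2.26 to 6.02 CPM in the 4-month groups. Col2a1 had 39 counts and Acan 2 in all 8 samples together. Adipocyte markers overlapped between the ages, at 299 to 563 and 157 to 379 CPM, with 7 of 7 lower and Adipoq called. Of 6 endothelial markers 4 were lower and Cdh5 was called.

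The 4-month and 1-week samples did not overlap along either sum, so no correlation of Slc3a2 with them is given over the 8 samples, and none within the 4 samples of an age. Within groups the sample with more C cell marker RNA had more Slc3a2 in 2 of 4 groups. The sample with more macrophage marker RNA had less Slc3a2 in each of the 4 groups. This order was not particular to macrophages, since it also held in each group for the endothelial and the red blood cell sums. The sum of 7 follicular cell markers (Tg, Tshr, Pax8, Nkx2-1, Foxe1, Slc5a5, Duox2) varied 1.19-fold over the 8 samples, and all 7 were present in every sample, but this sum is nearly all Tg. With age 6 of the 7 had higher fitted values and none of these was called, and Tshr, the thyrotropin receptor, was lower (0.824-fold, edgeR adjusted p = 0.0368). Slc5a5, the iodide transporter, ranged from 335 to 507 CPM at 1 week and from 443 to 734 CPM at 4 months. Lymphocyte markers summed to 4.65 to 8.03 CPM and skeletal muscle markers to 11.1 to 102 CPM. The part of these cell types in the age difference of Slc3a2 was not tested.

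The other transporters did not pass the test between the ages. Slc43a2 was at 28.1 and 26.9 CPM in the 1w0Gy rats and at 33.5 and 34.7 CPM in the 4m0Gy rats, without overlap. Its log2 fold change was 0.31 (SE 0.086), or 1.24-fold (1.08 to 1.43), with an edgeR adjusted p of 0.140. In the irradiated rats, with 26.5 and 34.6 CPM at 1 week against 34.0 and 30.4 CPM at 4 months, the groups overlapped and the log2 fold change was 0.08 (SE 0.14).

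Slc7a5 showed the opposite order in the irradiated rats. Its 4m4Gy samples, at 6.44 and 8.93 CPM, were both below the 1w4Gy samples at 9.26 and 12.4 CPM, with a log2 fold change of -0.49 (SE 0.23, edgeR adjusted p = 0.365). In the sham-irradiated rats the samples overlapped, and the log2 fold change was 0.16 (SE 0.44). Slc16a10 did not overlap between the irradiated groups, at 0.684 and 0.741 CPM against 0.796 and 0.842 CPM, but these values rest on 11 to 13 counts per sample.

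The share of genes without overlap was again large, at 50.1% between the sham groups, where Slc3a2 and Slc43a2 did not overlap, and 47.5% between the irradiated groups, where Slc3a2, Slc7a5, and Slc16a10 did not. With 4 samples against 4, 12.8% of the genes did not overlap between the ages, among them Slc3a2, and 1.54% did not between sham and irradiated samples, none of them a transporter of the 6. Slc7a8 and Slc43a1 overlapped in both age comparisons. Ordered by group mean, Slc7a8, Slc43a1, Slc43a2, and Slc16a10 had no neighbouring groups that separated, Slc7a5 separated only between 1w4Gy and the next group, 4m4Gy, and Slc3a2 separated between 4m0Gy and 1w0Gy and between 1w0Gy and 1w4Gy.

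Since the light chains Slc7a5 and Slc7a8 share their heavy chain, their balance was compared within each sample, where library scaling drops out. Other SLC7 genes were not part of these ratios. Among them, Slc7a7, which also pairs with Slc3a2, had 34.0 CPM per kilobase and Slc7a6 had 5.34. The sum of Slc7a5 and Slc7a8 per kilobase was 0.132 and 0.0816 of the Slc3a2 level in the 1w0Gy rats and 0.103 and 0.0986 in the 1w4Gy rats. At 4 months it was 0.0885 and 0.0967 without and 0.102 and 0.0683 with irradiation. It was 0.860 times as high in the 4-month samples as in the 1-week samples (two-sided exact permutation test, p = 0.343, n = 4 and 4) and 0.935 times as high in the irradiated as in the sham samples (exact permutation p = 0.629, n = 4 and 4).

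The balance between the light chains differed more. Slc7a5 was 0.156 and 0.137 of Slc7a8 in 1w0Gy and 0.287 and 0.441 in 1w4Gy, so both irradiated samples were above both sham samples. In 4m0Gy it was 0.0953 and 0.245, and in 4m4Gy 0.130 and 0.338. Over both ages the ratio was 1.83-fold higher in the irradiated samples (two-sided exact permutation test, p = 0.143, n = 4 and 4) and 0.786-fold at 4 months relative to 1 week (exact permutation p = 0.543, n = 4 and 4). The ratio of Slc43a2 to Slc43a1, added to the planned ratios, was 1.31-fold higher at 4 months (exact permutation p = 0.257, n = 4 and 4) and did not differ in its mean between irradiated and sham samples beyond its spread (1.00-fold, exact permutation p = 0.971, n = 4 and 4). The Benjamini-Hochberg values over these 6 tests were 0.686 to 0.971. The smallest p such a test can give is 0.0286.

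**Figure D5:**
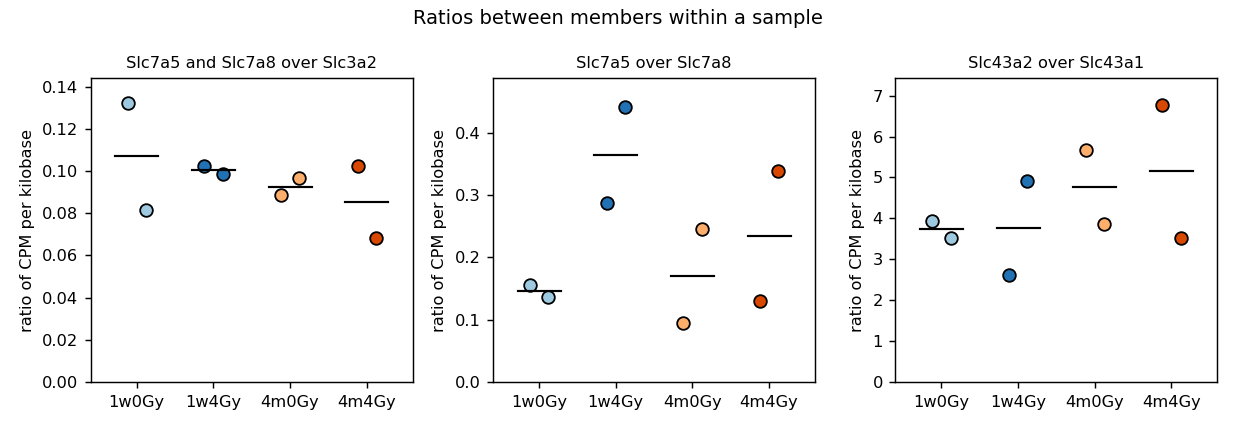
Ratio of the summed light chains Slc7a5 and Slc7a8 to the heavy chain Slc3a2 (left), of Slc7a5 to Slc7a8 (middle), and of Slc43a2 to Slc43a1 (right) in every sample, from CPM per kilobase, on axes that start at 0. Points are rats and lines the means of 2; the middle panel spans 0.0953 to 0.441, with both 1w4Gy samples above both 1w0Gy samples.

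The rest of the transport and hormone handling genes were read from lists of related genes. In the irradiation comparisons at each age, over both ages, and in the interaction, 0 members of any of the 5 lists were called by edgeR, with 6 of 54, 5 of 53, 8 of 53, and 3 of 53 tested list genes at an unadjusted p under 0.05. The shares over all genes were 5.68%, 8.39%, 3.89%, and 9.12%. DESeq2 called 1 list gene over both ages, beside 12 of all 10800 genes, and 0 in the other 3. With age over both treatments edgeR called 3 of the 53, beside 669 of all 15684 genes (4.27%). DESeq2 called 9 of the list genes there, beside 1042 of all 15436 genes. Of 16 other thyroid hormone transporters, 13 were matched and 8 were tested in each comparison, and 1 was called, Slco2b1, which encodes an organic anion transporting polypeptide. It was at 36.4 to 41.6 CPM in the 1-week groups and 22.9 to 31.4 CPM in the 4-month groups, 0.687-fold over both treatments (0.597 to 0.790, edgeR adjusted p = 0.00964). Slc7a7, the y+LAT1 light chain that also pairs with Slc3a2, had the highest level per length of this list, at 34.0 CPM per kilobase, and ranged from 58.7 to 77.3 CPM.

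Of 13 other genes of the SLC7, SLC3, and SLC43 families, 12 were matched, 6 were tested, and 0 were called in any comparison by edgeR or DESeq2. In each comparison 1 of the 6 had an unadjusted p under 0.05 in edgeR, beside 3.89% to 20.5% of all genes. Slc7a4 (10.2 CPM per kilobase) and Slc43a3 (8.08) were the highest, and Slc7a12 and Slc7a13 were at 0 counts in all samples. Slc3a1, the other heavy chain gene of the family, had 19 counts in all 8 samples together. Of 14 other monocarboxylate transporters and their partner proteins, 13 were matched and 0 were called by edgeR in any comparison, and 10 were tested with age. At an unadjusted p under 0.05 there were 5 of these 10 for age over both treatments, beside 20.5% of all genes, and 3 of the 10 in the sham-irradiated rats, beside 17.8%. DESeq2 called 1, Slc16a3, a lactate exporter, in both of these comparisons. The partners Bsg (basigin, 561 CPM per kilobase) and Emb (embigin, 86.9) were the highest of that list.

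Of 18 amino acid response genes, all tested, edgeR called 1, Slc1a5, with age over both treatments. DESeq2 called Slc1a5 and Shmt2 there, beside 1042 of all 15436 genes. With irradiation over both ages it called Ddit4, beside 12 of all 10800 genes. Slc1a5, a glutamine exchanger, was at 38.3 to 51.2 CPM in the 1-week groups and 27.5 to 38.0 CPM in the 4-month groups, 0.719-fold (0.620 to 0.834, edgeR adjusted p = 0.0217). The most abundant per length were Psat1, an enzyme of serine synthesis, at 255 CPM per kilobase, and Atf4, the transcription factor of this response, at 127. The median log2 fold change of this list was -0.07 with age over both treatments and 0.07 with irradiation over both ages, against medians of -0.0021 and 0.0012 over all genes tested.

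Of 11 genes for the release and recycling of iodothyronines in the follicle, all tested, edgeR called 1, Dio2, in each age comparison. DESeq2 called Dio1 and Dio2 in the sham-irradiated rats, Ctsl, Dio2, and Lrp2 in the irradiated rats, and Ctsb, Ctsk, Ctsl, Dio1, and Dio2 over both treatments. Of all genes DESeq2 called 346 of 13195, 292 of 14370, and 1042 of 15436 in these comparisons. Over both treatments 7 of the 11 had an unadjusted p under 0.05 in edgeR, beside 20.5% of all genes. Dio2, the deiodinase that makes triiodothyronine from thyroxine, was at 7.59 to 11.1 CPM in the 1-week groups and 2.13 to 3.34 CPM in the 4-month groups, without overlap. It fell with age in the sham-irradiated rats to 0.288-fold (edgeR adjusted p = 0.0404) and in the irradiated rats to 0.338-fold (edgeR adjusted p = 0.0234). Tg and Ctsb, the gene of the thyroglobulin-cleaving protease cathepsin B, had the highest levels per length of this list. With age over both treatments the median log2 fold change was 0.18 for the 6 transporters, -2.5e-05 for the other thyroid hormone transporters, -0.11 for the other SLC7, SLC3, and SLC43 genes, 0.08 for the monocarboxylate transporter list, and -0.11 for the iodothyronine list. With irradiation over both ages the medians were 0.0047, -0.03, -0.08, 0.01, and -0.00012 in the same order. The comparisons of the same groups share samples, so calls in several of them are not separate evidence.

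The genes whose levels over the 8 samples resembled each transporter most were found by Pearson's correlation of log2(CPM + 1) among 14395 or 14396 genes averaging 1 CPM or more, as a description over 8 samples. For Slc3a2 these were Gpr160 (r = 0.989), Steep1 (0.984), and Tecta (0.977). For Slc7a8 they were Cfap300 (0.982), Alox12 (0.971), and Slc9a2 (0.97). For Slc7a5 they were Rnf152 (0.947), Scn3a (0.947), and Tec (0.932).

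For Slc43a1 the nearest were Neurl3 (r = 0.989), Capn7 (0.958), and Emilin1 (0.93), and for Slc43a2 they were Zmiz2 (0.971), Cep70 (0.967), and Flrt3 (0.965). For Slc16a10 they were Plekha6 (0.953), an unnamed gene (0.951), and Dipk2b (0.949). At 9 to 21 counts per sample, Slc16a10 did not vary detectably above counting error, which limits every r given for it here. Slc3a2 had 103 genes with r above 0.9 and Slc43a1 had 6. Among the 6 transporters themselves no pair reached such values, and r ranged from -0.636 for Slc7a8 and Slc43a1 to 0.49 for Slc16a10 and Slc43a2.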

How the data were processed

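Thyroid RNA of 8 rats was sequenced from libraries of a directional kit. The authors mapped reads with HISAT2 (2.2.1) and counted them with featureCounts (2.0.0), per the labels. The genome build and the strand setting of the counting are not given in the sources used here. The deposited table holds raw counts, RPKM (not used), and TPM, which the authors computed from the counts, for 54991 transcripts with their length. Transcripts of a gene share reads, so the one with the highest summed count was taken per gene.

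Counts were tested in R 4.3.3 with edgeR 4.0.16 (quasi-likelihood test, TMM, filterByExpr, robust estimation, Benjamini-Hochberg adjustment), each 2-group comparison on its own 4 samples. DESeq2 1.42.0 was an alternative. The edgeR functions were tested on simulated data. SE is the absolute log2 fold change over the square root of F. Exact permutation tests of the ratios used scipy 1.17.1 in Python 3.11.15. Those of the marker correlations went through every order of the 8 samples with numpy 2.4.6. At 14835400 to 18138102 counts per sample, counting error is large only for Slc16a10 and Slc43a1. Intervals on single counts would cover counting error only.

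The members and gene lists were chosen with earlier results of these data known. Named were the 6 members, list genes that were called, the 2 tested genes per list with the highest level per length, and the 3 genes most like each member. Ddit4, Shmt2, Slc16a3, Dio1, Ctsk, Ctsl, Lrp2, Slc3a1, Slc7a6, Slc7a12, and Slc7a13 were named after their values were seen. Alternatives were other normalizations, filters, transcript choices, the replicate block, fits of all 8 samples, no fold limits, and leaving out each sample. Robust estimation was chosen, and non-robust fits, age over both treatments, the Slc43a2 to Slc43a1 ratio, and the marker correlations were added, after seeing the data. Some genes of the lists, markers included, are not reported here.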

Additional observations from a re-analysis of the deposited data

How the results depend on the processing

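The count of called transporters was 0 in each irradiation comparison and in the interaction under all alternatives run. With age in the irradiated rats it went from 0 to 1 (Slc3a2) with DESeq2, without a filter on low counts, and with the replicate block, and ranged from 0 to 1 without 1 sample. With age over both treatments it was 1 and ranged from 0 to 2 without 1 sample, 2 being reached without the second 1w4Gy replicate, where Slc43a2 also passed (log2 fold change 0.30, edgeR adjusted p = 0.0417). The counts of all called genes moved more. Irradiation at 1 week had 1 gene with edgeR, 13 with DESeq2, 11 with the replicate block, and up to 45 without 1 sample. Irradiation at 4 months had 3, 14 without a filter, 12 with the block, and up to 52 without 1 sample. Age in the sham-irradiated rats had 163, 346 with DESeq2, 506 without a filter, 13 with the block, 27 with summed counts, and 12 to 744 without 1 sample. Age in the irradiated rats had 136, 292 with DESeq2, 421 without a filter, 764 with the block, 44 with summed counts, 70 without robust estimation, and 28 to 1150 without 1 sample. The interaction had 0, 26 with DESeq2, 6 without a filter, and up to 22 without 1 sample. Irradiation over both ages had 2, 12 with DESeq2, and 1 to 5 without 1 sample, and age over both treatments had 669, 1042 with DESeq2, and at least 292 without 1 sample. Summed counts and non-robust fits called 0 genes for irradiation at either age. The cause of these differences was not tested. The replicate numbers did not pair the samples (correlations of same-numbered deviations from -0.24 to 0.22 over 6 group pairs), and with them as a block Slc7a8 and Slc43a1 turned to 0.014 and -0.0094 with age in the sham-irradiated rats. The log2 ratio of Slc43a2 to Slc43a1 by irradiation was 0.0015 with summed counts. Fits without 1 sample assume that a lone sample varies like the other group. Of 42 log2 fold changes of transporters, 24 changed sign in at least 1 such fit. For irradiation at 1 week the log2 fold changes ran from -0.36 to 0.45 for Slc16a10, -0.059 to 0.46 for Slc43a1, and -0.053 to 0.34 for Slc43a2. For irradiation at 4 months the log2 fold changes ran from -0.59 to 0.19 for Slc16a10, -0.62 to 0.28 for Slc7a8, -0.26 to 0.88 for Slc7a5, -0.022 to 0.13 for Slc3a2, and -0.58 to 0.21 for Slc43a1. For age in the sham-irradiated rats the log2 fold changes ran from -0.029 to 0.90 for Slc16a10, -0.23 to 0.27 for Slc7a8, -0.54 to 0.62 for Slc7a5, and -0.32 to 0.28 for Slc43a1. For age in the irradiated rats the log2 fold changes ran from -0.19 to 0.71 for Slc7a8, -0.78 to 0.0083 for Slc43a1, and -0.11 to 0.29 for Slc43a2. For the interaction the log2 fold changes ran from -0.22 to 0.70 for Slc16a10, -0.71 to 0.19 for Slc7a8, and -0.034 to 1.12 for Slc7a5. For irradiation over both ages the log2 fold changes ran from -0.30 to 0.063 for Slc16a10, -0.076 to 0.024 for Slc3a2, -0.0997 to 0.22 for Slc43a1, and -0.069 to 0.086 for Slc43a2. For age over both treatments the log2 fold changes ran from -0.073 to 0.31 for Slc7a8, and -0.32 to 0.016 for Slc43a1. The summed light chains over Slc3a2 ran from -0.19 to 0.047 by irradiation on the log2 scale, and Slc43a2 over Slc43a1 from -0.23 to 0.227. Depth limits Slc16a10, whose differences cannot be seen at 9 to 21 counts.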
